A study of Drosophila melanogaster with 9 samples.

Results

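Notch is a cell surface receptor that signals to the nucleus, and 10 genes of its pathway are described here in developing egg chambers of Drosophila melanogaster. They are the receptor N (Notch), its ligand Dl (Delta), the glycosyltransferase gene fng (fringe), the DNA-binding factor Su(H) (Suppressor of Hairless), the target genes HLHmbeta and HLHm7, the Hes-type gene Her, and the transcription regulators ct (cut), peb (pebbled, also called hindsight) and eya (eyes absent). They were taken by symbol from gene tables that list 15602 genes each, and all 10 were found. Poly(A) RNA was measured in 9 libraries of whole follicles, 3 in each of 3 groups, with 100 pooled follicles per library. The first group was wild-type stage 8, the second wild-type stage 10, and the third stage 10 from EcRts females, which carry a temperature-sensitive mutation of the ecdysone receptor gene EcR. All females were adults labelled as 6 to 14 days old and as the strain Oregon R, while the growth protocol gives 4 days as the lowest age. Flies were reared at 25 °C with fresh food for 36 hours, and the treatment protocol gives the EcR mutants a shift to a temperature restrictive for the allele, 2 days after they eclosed. It does not mention the wild type, so a part of temperature in the differences from EcRts cannot be told apart from that of genotype, and neither the alleles nor the restrictive temperature are known from the labels. No label ties the libraries of a group to separate animals or days, so the p-values measure only the spread between these samples.

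When Delta on the germline cells meets Notch on the surrounding follicle cells, Notch is cleaved, and its intracellular part enters the nucleus and joins Su(H) and the coactivator mastermind to switch on targets such as the Enhancer of split genes. In the follicle epithelium this signal is known for ending mitotic divisions and starting endocycles, with the Cut protein lost and the Hindsight protein gained. Later, when the cells leave the endocycle to amplify eggshell genes, Hindsight is known to decline and Cut to return, a step for which ecdysone signalling and the product of ttk (tramtrack) are also needed.

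Values are FPKM, fragments scaled by transcript length and library size. A change is the difference between group means of log2(FPKM + 1), which understates the change of genes near 1 FPKM, and folds of a level are ratios of mean FPKM. A gene is said to rise, fall or change where its adjusted p from limma, by the Benjamini-Hochberg method over all tested genes, was under 0.05. The deposited confidence limits imply 17.5 to 21.7 M fragments in wild-type and 27.2 to 33.3 M in EcRts libraries, and the number of genes at 1 FPKM or more ran from 7924 to 8202. EcR itself was at 19.4 ± 0.446, 21.0 ± 1.36 and 20.6 ± 0.670 FPKM in stage 8, wild-type stage 10 and EcRts follicles (SD, n = 3) and was not called in any comparison. A temperature-sensitive allele need not alter the amount of mRNA, so this level does not check the labels. The libraries held germline RNA as well as follicle cell RNA: 7 germline markers summed to between 1289 and 1805 FPKM. All 15 follicle cell markers had a mean of at least 1 FPKM at stage 8 and in EcRts, and 14 did at wild-type stage 10. The values therefore describe whole follicles, not the epithelium alone. The 8 markers of the muscle sheath summed to 6.19 to 11.4 FPKM at stage 8, 10.9 to 14.4 at wild-type stage 10 and 18.7 to 25.1 in EcRts. Of 4 hemocyte markers only srp reached 1 FPKM, and the others had group means of at most 0.223 FPKM. Their sum ran from 6.28 to 6.92, from 17.2 to 23.3 and from 6.85 to 10.2 FPKM in the same order of groups. Of 4 germarium markers only bam reached 1 FPKM, and the list summed to 4.69 to 5.25, 13.9 to 16.5 and 12.3 to 16.9 FPKM. The markers of fat body (4 genes), neurons (4 genes) and trachea (3 genes) summed to at most 2.20 FPKM in any library.

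How the pathway differs between the stages was read from wild-type stage 10 against stage 8. 7 of the 10 genes were lower at stage 10, among them the receptor, the ligand and the Hes-type genes HLHmbeta and Her, and Su(H) was slightly higher. Among the tested genes of the 10 the steepest falls were those of the Hes-type genes: HLHmbeta was 5.15-fold and Her 6.56-fold lower at stage 10, while N was 1.82-fold and Dl 1.36-fold lower. ct did not pass the test and HLHm7 was below the level required for testing. Her reached 1 FPKM in 3 stage 8 and 2 wild-type stage 10 libraries. It met the required level only with those of stage 8, so its fall adds nothing to the count. Among all 8340 genes tested 68.1% were called, 49.2% higher and 18.9% lower, with a median change of 0.20 over all of them. The median over the 9 tested genes of the 10 was −0.76. The 7 falls held in all 20 alternative settings, whose scalings moved the median change of all genes to between −0.01 and 0.42. Since the libraries are bulk RNA, fewer cells of a type and less RNA per cell cannot be told apart.

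**Figure D1:**
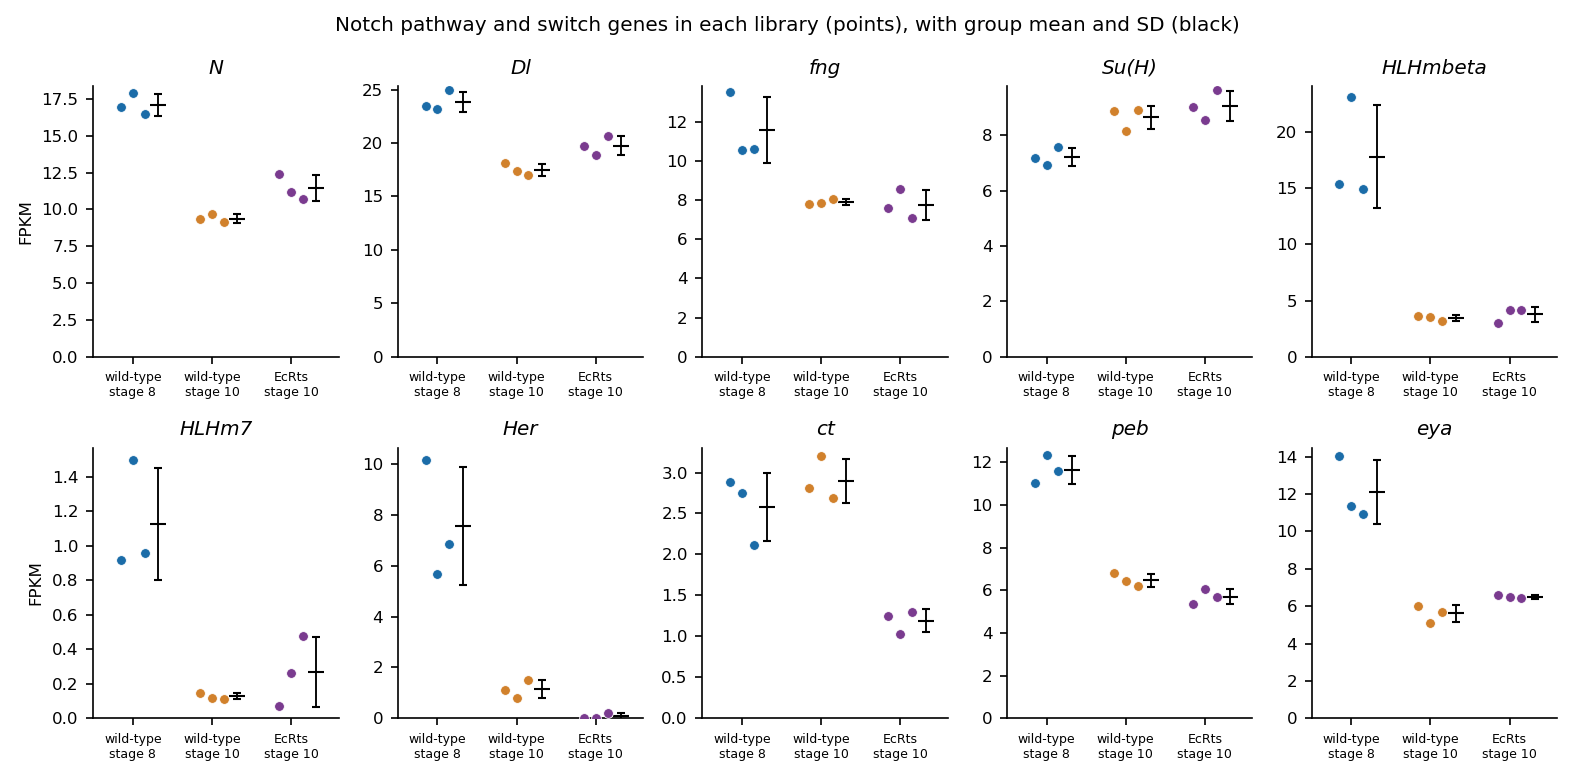
FPKM of the 10 genes in every library (points), by group on the horizontal axis, with the mean and SD of the 3 libraries in black and a vertical axis from 0 in each panel. All genes but Su(H) and ct are lower in all stage 10 libraries than in any stage 8 library. ct, Her and peb are lowest in EcRts without overlap, peb by a small gap.

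N (FBgn0004647, chromosome X, 3028905 to 3066295 in the build dm3) encodes the receptor. Its 3 stage 8 libraries had 16.9, 17.9 and 16.5 FPKM, and its 3 wild-type stage 10 libraries had 9.33, 9.68 and 9.12. The EcRts libraries had 12.4, 11.2 and 10.7 FPKM. The 3 groups did not overlap, with stage 8 highest and wild-type stage 10 lowest. The mean was 17.1 ± 0.757 FPKM at stage 8 and 9.38 ± 0.285 at wild-type stage 10 (SD, n = 3), a change of −0.80 (SE 0.063, limma adjusted p = 1.88e-05).

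Dl (FBgn0000463, chromosome 3R, 15128453 to 15151935) encodes the ligand that the germline presents to the follicle cells. It was the most abundant of the 10 genes in every group, with 23.4, 23.2 and 24.9 FPKM at stage 8. It had 18.1, 17.3 and 17.0 FPKM at wild-type stage 10 and 19.7, 18.9 and 20.7 in EcRts. The groups again did not overlap, and their order was that of the receptor. The mean fell from 23.9 ± 0.935 to 17.5 ± 0.577 FPKM between the wild-type stages, a change of −0.43 (SE 0.051, limma adjusted p = 1.39e-04). Ser (Serrate), the other Notch ligand of the fly, was at or near 0 throughout, with at most 0.0105 FPKM in any library.

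fng (FBgn0011591, chromosome 3L, 20918991 to 20942612) encodes an enzyme that adds a sugar to Notch and so alters its response to the ligands. It had 13.5, 10.6 and 10.6 FPKM at stage 8, 7.79, 7.88 and 8.08 at wild-type stage 10 and 7.60, 8.56 and 7.08 in EcRts. Every stage 8 library was above every stage 10 library, while the 2 stage 10 groups overlapped. The change between the wild-type stages was −0.49 (SE 0.101, limma adjusted p = 0.00291). CG10589 lies within the fng locus and reached at most 1.74 FPKM, and the counting rule for overlapping genes is not given in the sources used.

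Su(H) (FBgn0004837, chromosome 2L, 15039496 to 15043335) encodes the DNA-binding protein through which the Notch signal reaches its targets. Its libraries had 7.16, 6.91 and 7.56 FPKM at stage 8, 8.88, 8.15 and 8.91 at wild-type stage 10, and 9.005, 8.56 and 9.64 in EcRts. Stage 8 was lowest with no overlap, and the 2 stage 10 groups overlapped. The rise of 0.23 (SE 0.066, limma adjusted p = 0.0131) was close to the median change of all genes, and its call did not survive median-of-ratios scaling (0.04, adjusted p = 0.624) or quantile normalization (0.02, adjusted p = 0.831).

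HLHmbeta (FBgn0002733, chromosome 3R, 21830768 to 21831745) is a gene of the Enhancer of split complex and encodes a basic helix-loop-helix repressor. It had 15.4, 23.1 and 14.9 FPKM at stage 8, then 3.64, 3.56 and 3.17 at wild-type stage 10 and 3.02, 4.16 and 4.13 in EcRts. All 6 stage 10 libraries lay far below the lowest stage 8 library, and the 2 stage 10 groups overlapped. The mean fell from 17.8 ± 4.58 to 3.46 ± 0.253 FPKM between the wild-type stages, a change of −2.05 (SE 0.170, limma adjusted p = 2.37e-05). The confidence limits imply 264 to 475 fragments for this gene in the stage 8 libraries and 55 to 73 in the wild-type stage 10 libraries.

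HLHm7 (FBgn0002633, chromosome 3R, 21862760 to 21863741), a second repressor gene of the same complex, had 0.915, 1.50 and 0.957 FPKM at stage 8 and 0.149, 0.120 and 0.115 at wild-type stage 10. It had 0.0723, 0.261 and 0.474 FPKM in EcRts. The stage 8 values were above all others, but only 1 library reached 1 FPKM and the gene was not tested with the level filter in place. The stage 10 values rest on between 2 and 16 implied fragments. With no filter on low values it was lower at wild-type stage 10 than at stage 8, with a change of −0.90 (limma adjusted p = 0.00115).

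Her (FBgn0030899, chromosome X, 18098436 to 18099177) encodes a further basic helix-loop-helix protein of the Hes type. It had 10.1, 5.68 and 6.84 FPKM at stage 8 and 1.13, 0.797 and 1.52 at wild-type stage 10. In EcRts it was listed at 0 in 2 libraries and at 0.225 FPKM in the third, which corresponds to 4 implied fragments. The 3 groups did not overlap and fell in the order stage 8, wild-type stage 10 and EcRts. The gene passed the level filter through its wild-type libraries alone, and not without those of stage 8. Its change between the wild-type stages was −1.97 (SE 0.214, limma adjusted p = 8.52e-05). Its interval overlaps the end of that of Frq2, which had at most 0.044 FPKM.

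ct (FBgn0004198, chromosome X, 7503181 to 7572892) encodes the homeodomain protein Cut. It had 2.89, 2.75 and 2.11 FPKM at stage 8, 2.81, 3.20 and 2.69 at wild-type stage 10 and 1.24, 1.03 and 1.30 in EcRts. The wild-type stages overlapped, and all EcRts libraries were below all wild-type libraries. Between the wild-type stages the difference was 0.13 with a 95% interval of −0.15 to 0.40 (limma adjusted p = 0.375), and its sign turned with median-of-ratios scaling and with quantile normalization.

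peb (FBgn0003053, chromosome X, 4511602 to 4520256) encodes the zinc finger protein Hindsight. It had 11.0, 12.3 and 11.6 FPKM at stage 8, 6.80, 6.41 and 6.21 at wild-type stage 10 and 5.35, 6.05 and 5.66 in EcRts. The 3 groups did not overlap, but the gap between the stage 10 groups was small beside that to stage 8. The mean fell from 11.7 ± 0.655 to 6.47 ± 0.304 FPKM between the wild-type stages, a change of −0.76 (SE 0.068, limma adjusted p = 3.33e-05).

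eya (FBgn0000320, chromosome 2L, 6527447 to 6546972) encodes a transcription cofactor that keeps main-body follicle cells from taking the polar cell fate. It had 14.0, 11.3 and 10.9 FPKM at stage 8, 6.02, 5.10 and 5.69 at wild-type stage 10 and 6.59, 6.46 and 6.42 in EcRts. Every stage 10 library was below every stage 8 library, and EcRts lay just above wild-type stage 10 with no overlap. The mean fell 2.16-fold between the wild-type stages, from 12.1 ± 1.69 to 5.61 ± 0.466 FPKM, a change of −0.98 (SE 0.097, limma adjusted p = 5.36e-05).

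The order of the 10 genes differed between the groups. At stage 8 Dl came first, followed by HLHmbeta and N, whose ranges overlapped, and then by eya, peb and fng, which also overlapped. Her and Su(H) followed with overlapping ranges, and then came ct and HLHm7. At wild-type stage 10 the order was Dl, N, Su(H), fng, peb, eya, HLHmbeta, ct, Her and HLHm7, and only the neighbours HLHmbeta and ct overlapped. HLHmbeta thus stood second of the 10 at stage 8 and seventh at wild-type stage 10. In EcRts eya stood before peb and HLHm7 before Her, the latter pair with overlapping ranges. Even the most abundant gene of the 10 had a moderate level: Dl was above 55.3% of the tested genes at stage 8, above 37.5% at wild-type stage 10 and above 44.2% in EcRts.

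Comparison of EcRts with wild-type stage 10 shows whether the pathway differed where the ecdysone receptor was mutated. The 2 genes that fell were ct, 2.43-fold, and Her, which was listed at 0 in 2 of 3 EcRts libraries. Her passed the level filter through its wild-type libraries alone, so its fall adds nothing to the count. N and Dl were higher by 1.22-fold and 1.13-fold. fng, Su(H), HLHmbeta, peb and eya did not pass the test. Among all tested genes 43.8% were called in this comparison, 9.93% higher and 33.9% lower, with a median change of −0.12, and the 4 calls among 9 tested genes are close to that background. All EcRts libraries had more muscle sheath marker RNA than all wild-type stage 10 libraries, as given above. They had a lower sum of the hemocyte list, through srp alone. The hemocyte marker Pxn went the other way without overlap, at 0.223 ± 0.0272 FPKM in EcRts and 0.0654 ± 0.0660 in wild-type stage 10. The hemocyte markers Hml and NimC1 overlapped between these groups. The part of the muscle sheath and hemocyte markers in these results was not tested.

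**Figure D2:**
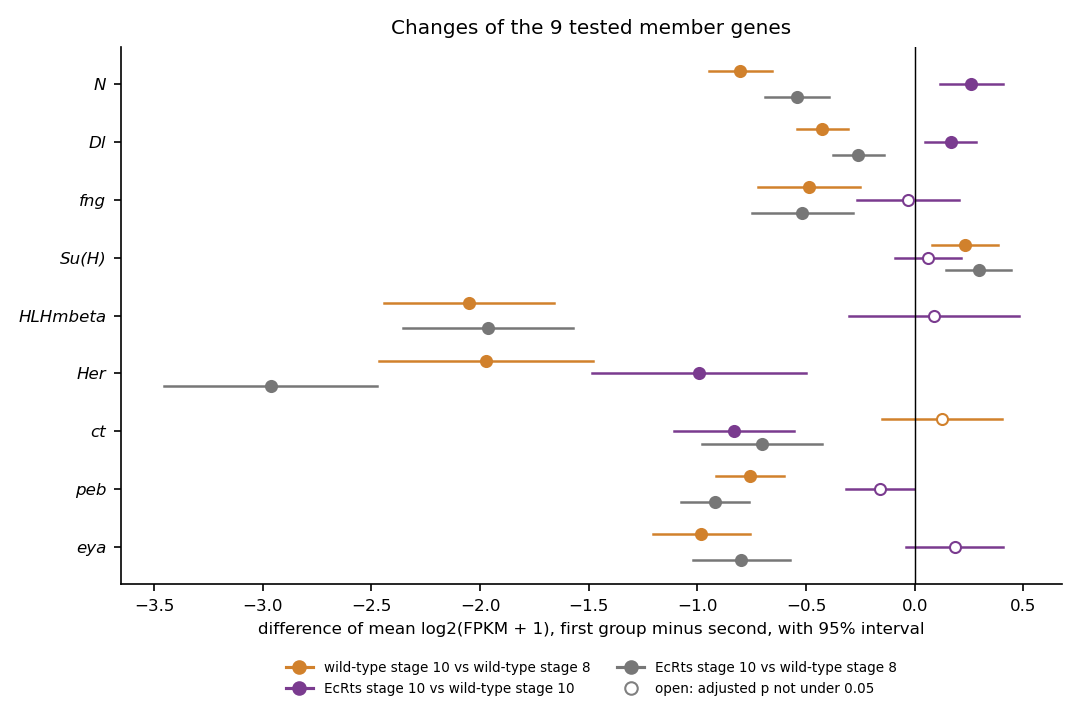
Change of each of the 9 tested genes in the 3 comparisons, as the difference of mean log2(FPKM + 1) with its 95% interval on the horizontal axis. Filled points have an adjusted p under 0.05. HLHmbeta, Her, eya, N and peb lie well below 0 in both comparisons with stage 8, and ct and Her also lie below 0 in EcRts against wild-type stage 10, at −0.83 and −0.99.

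The fall of ct was −0.83 (SE 0.120, limma adjusted p = 0.00128), from 2.90 ± 0.266 FPKM in wild-type stage 10 to 1.19 ± 0.141 in EcRts. It remained below the threshold in all 20 alternatives, with adjusted p between 3.17e-04 and 0.00607. The fall of Her was −0.99 (SE 0.214, limma adjusted p = 0.00741). Its size depends on the pseudocount, being −3.04 with 0.1 and −0.28 with 5, and with the latter the call was lost (adjusted p = 0.088). In the wild-type stage 10 libraries Her rests on between 6.28 and 14.0 implied fragments.

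N was 0.26 higher in EcRts (SE 0.063, limma adjusted p = 0.0122), and Dl 0.17 higher (SE 0.051, limma adjusted p = 0.0301). With totals set without eggshell and yolk genes the call for N was lost (0.09, adjusted p = 0.221) and Dl turned to −0.01 (adjusted p = 0.861). The call for Dl was also lost when 1 library was left out: wild-type stage 10 replicate 2 or 3, or EcRts replicate 1 or 3, with adjusted p between 0.0682 and 0.106. For peb the EcRts libraries were all below the wild-type ones, but the difference of −0.16 (95% interval −0.32 to −0.0046) had a limma adjusted p of 0.0884, and it was called only with scaling without eggshell and yolk genes (−0.32, adjusted p = 0.00287). For eya the difference was 0.18 (95% interval −0.04 to 0.41, limma adjusted p = 0.157), and it was called with median-of-ratios scaling and with chromosome-arm scaling. HLHmbeta differed by 0.09 with a 95% interval of −0.30 to 0.48 (limma adjusted p = 0.694). The intervals of fng and Su(H) ran from −0.26 to 0.20 and from −0.09 to 0.21.

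EcRts stage 10 was also compared with wild-type stage 8. This shares its libraries with both other comparisons, so that its values are not independent of them. 8 genes were lower and 1, Su(H), was higher than at stage 8. Of all tested genes 61.4% were called, 39.8% higher and 21.5% lower, with a median change of 0.11. Her, 1 of the 8, passed the level filter through its wild-type libraries alone, so its fall adds nothing to the count. N differed by −0.54, Dl by −0.26, fng by −0.52, HLHmbeta by −1.96, Her by −2.96, ct by −0.70, peb by −0.92 and eya by −0.80, with limma adjusted p between 2.68e-05 and 0.00266. ct therefore fell below its stage 8 level in EcRts (SE 0.120, limma adjusted p = 0.00129), whereas the wild-type stages did not pass the test. Su(H) was 0.29 higher (limma adjusted p = 0.00505). The call for Dl was lost with chromosome-arm scaling (adjusted p = 0.0698) and that for Su(H) with quantile normalization (adjusted p = 0.124). HLHm7, tested with no filter on low values, was 0.74 below its stage 8 level on the log2 scale (change −0.74, limma adjusted p = 0.00386), and between EcRts and wild-type stage 10 it differed by 0.16 (adjusted p = 0.462).

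peb and ct encode the pair of factors that replace one another in the epithelium, and their ratio within a library does not depend on library scaling. peb FPKM divided by ct FPKM was 3.82, 4.49 and 5.49 at stage 8. It was 2.42, 2.01 and 2.31 at wild-type stage 10 and 4.30, 5.86 and 4.36 in EcRts. The ratio was lower in each wild-type stage 10 library than in any other library, and stage 8 and EcRts overlapped. In the wild type this went with the fall of peb, and in EcRts with low values of both genes. The ratio was formed after the values had been seen and was not tested.

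The genes were also set against tj (traffic jam), a transcription factor gene of the somatic follicle cells, in the same library. Folds of such ratios are between the geometric means of the 3 libraries of each group. tj itself had 75.5, 73.0 and 74.5 FPKM at stage 8, 46.0, 38.3 and 42.3 at wild-type stage 10 and 50.1, 61.3 and 58.1 in EcRts. It was highest at stage 8 and lowest at wild-type stage 10, with changes of −0.81 (limma adjusted p = 7.55e-05) between the wild-type stages and 0.41 (limma adjusted p = 0.00631) between EcRts and wild-type stage 10. Relative to tj, N was 0.969-fold and peb 0.982-fold their stage 8 ratios at wild-type stage 10, and their ranges overlapped (exact two-sided permutation test, p = 0.7 and 0.8). HLHmbeta, HLHm7, Her and eya were lower relative to tj with no overlap, at 0.350-fold, 0.205-fold, 0.268-fold and 0.822-fold. Dl, Su(H) and ct were higher, at 1.30-fold, 2.12-fold and 2.00-fold, and fng overlapped. Dl is the ligand of the germline and tj a somatic gene, so in whole follicles the ratio of Dl does not describe the epithelium alone. For each gene without overlap the exact permutation p was 0.1, the smallest that 3 against 3 libraries allow, and 0.147 when adjusted over 28 such tests. Of all tested genes 85.2% were higher and 2.33% lower relative to tj without overlap in this comparison, in which tj itself fell. HLHm7 is not among these tested genes, and Her is only through its stage 8 libraries, so neither adds to the number of lower ratios.

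**Figure D3:**
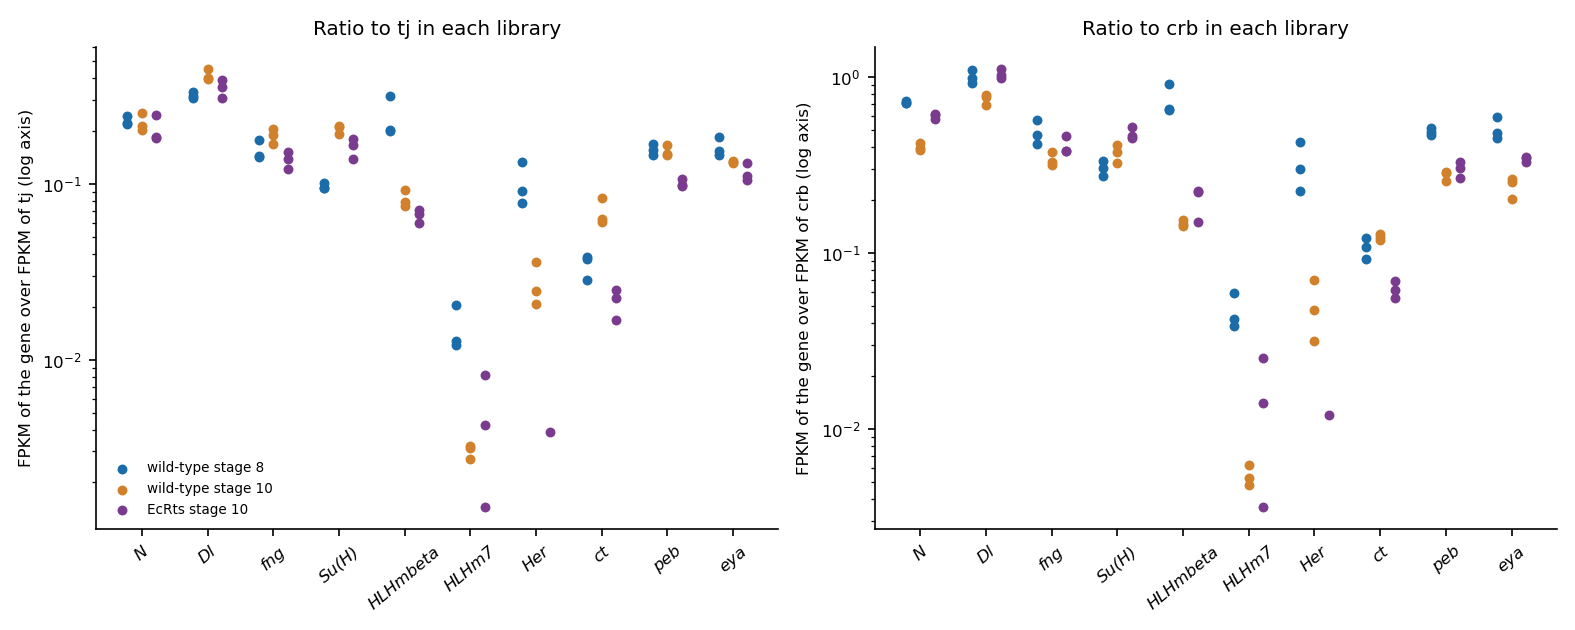
FPKM of each gene divided by the FPKM of tj (left) and of crb (right) in every library, on log axes, coloured by group. The 2 EcRts libraries with Her listed at 0 cannot be drawn. N and peb overlap between the wild-type stages when divided by tj and are lower at stage 10 when divided by crb, and HLHmbeta, HLHm7, Her and eya are lower at wild-type stage 10 with both.

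Between EcRts and wild-type stage 10, 7 genes were lower relative to tj without overlap and none was higher, against 74.1% and 4.04% of all tested genes. Of the folds that could be computed that of ct was lowest, at 0.307-fold, and peb was at 0.656-fold (exact permutation p = 0.1 for both). The ratio for Her was 0 in the 2 libraries where it was listed at 0, so its log2 could not be computed and no permutation test was run. Her counts as lower because each EcRts value was below each wild-type value. It passed the level filter through its wild-type libraries alone, so it adds nothing to the counts of EcRts ratios. Between EcRts and stage 8, 6 genes were lower and 1, Su(H), was higher, against 7.37% and 69.5% of all tested genes. The choice of reference gene decided several of these directions. crb (crumbs), an apical polarity gene, was at 23.9 ± 1.32, 23.5 ± 1.70 and 19.1 ± 0.856 FPKM and was lower in EcRts than in wild-type stage 10 (change −0.29, limma adjusted p = 0.01). That call was lost with median-of-ratios and chromosome-arm scaling (limma adjusted p up to 0.155). Between the wild-type stages crb was called only with median-of-ratios scaling, quantile normalization and scaling without eggshell and yolk genes. Relative to crb, 8 genes were lower and none higher at wild-type stage 10 than at stage 8, against 17.5% and 50.6% of all tested genes, and N was at 0.558-fold and peb at 0.566-fold their stage 8 ratios. Between EcRts and wild-type stage 10, 5 genes were higher relative to crb and 2, Her and ct, were lower, against 45.4% and 11.0% of all tested genes, with ct at 0.504-fold. Between EcRts and stage 8, 7 were lower relative to crb and 1 higher, against 9.51% and 64.7%. HLHm7 and Her are among the genes counted as lower than at stage 8, relative to tj and to crb. HLHm7 is not among the tested genes behind these shares, and Her is only through its stage 8 libraries, so neither adds to those counts.

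HLHmbeta and HLHm7 lie in the Enhancer of split region of chromosome 3R, where 15 genes from HLHmdelta to gro were examined. HLHmbeta was the most abundant of the helix-loop-helix genes, followed by HLHm3 with 6.97, 10.6 and 8.48 FPKM at stage 8. HLHm3 had 2.75, 1.31 and 3.43 FPKM at wild-type stage 10 and 2.61, 4.08 and 3.34 in EcRts, so that both stage 10 groups were below stage 8. HLHmdelta, HLHmgamma, HLHm5 and E(spl) never exceeded 0.217 FPKM. Of the Bearded-type genes, which encode small antagonists of the ubiquitin ligase Neuralized, malpha had a mean of 1.35 ± 0.239 FPKM at stage 8, 0.518 ± 0.0428 at wild-type stage 10 and 0.505 ± 0.415 in EcRts. The Bearded-type gene m4 was listed at 0 in all 9 libraries. gro (groucho), the corepressor gene at the end of the region, moved the other way, from 50.2 ± 2.23 FPKM at stage 8 to 66.9 ± 3.70 at wild-type stage 10 and 66.1 ± 2.72 in EcRts.

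**Figure D4:**
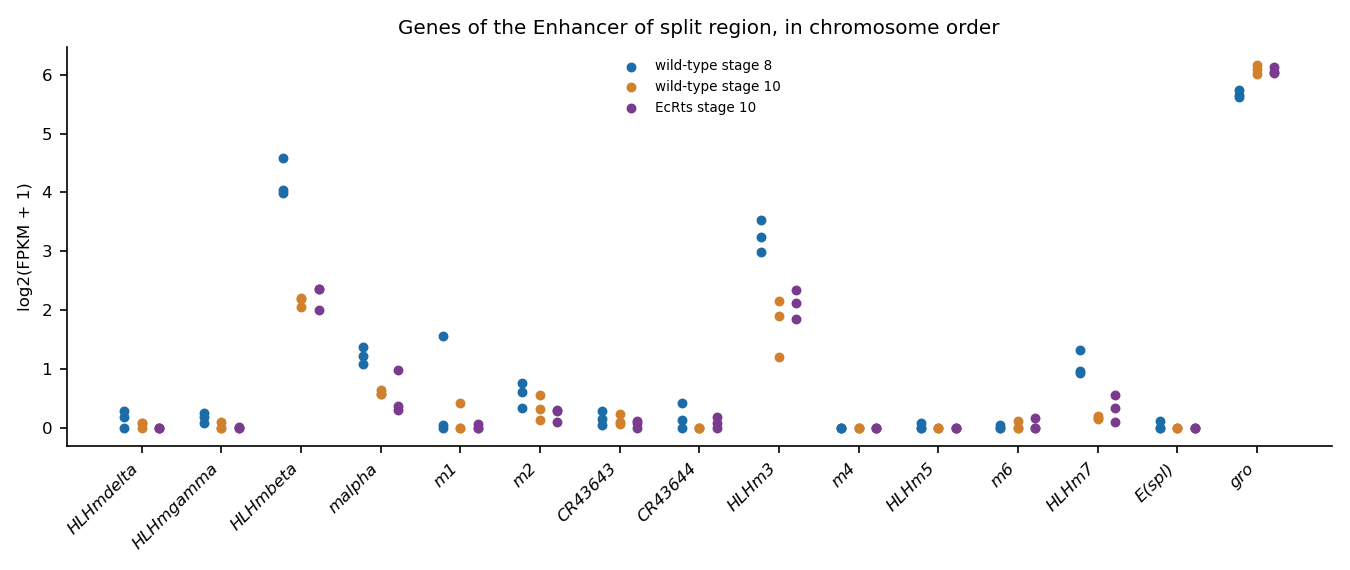
log2(FPKM + 1) of the 15 genes of the Enhancer of split region in every library, in chromosome order and coloured by group. HLHmbeta, malpha, HLHm3 and HLHm7 are highest in the stage 8 libraries, gro is higher in the stage 10 libraries, and the other genes stay at or below 0.699 FPKM, the highest value of m2, apart from m1 in 1 stage 8 library at 1.95 FPKM.

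A list of 60 genes of the Notch pathway, of which 58 were found and 40 tested, places these values among the rest of the pathway. Most of the other components that were tested were higher at wild-type stage 10 than at stage 8: without the 10 genes above, 22 of 31 rose, 4 fell and 5 did not pass the test. Their median change was 0.30, against 0.20 for all tested genes, 49.2% of which were called higher. The rises follow the scaling in part, since the number of rises in the whole list was 23 with the deposited values, 14 with median-of-ratios scaling and 15 with quantile normalization. The calls for kuz, Fur1, lqf, Nedd4, numb, CtBP and fzr were lost with both of these scalings, and that for krz with the first, whereas rumi, O-fut1, shams, pen-2, aph-1, nct, lgd, dx, mam, H, gro, ttk, dap and stg passed in all 20 alternatives. The call for kuz was also lost when any library but stage 8 replicate 2 or wild-type stage 10 replicate 3 was left out. The 4 genes that fell were HLHm3, h, mib1 and malpha, of which HLHm3 and malpha lie in the Enhancer of split region and h is a Hes-type gene outside it. malpha passed the level filter through its stage 8 libraries alone, so its fall adds nothing to the count. Its call was lost when stage 8 replicate 1 or 2, or wild-type stage 10 replicate 1 or 2, was left out (adjusted p up to 0.0696).

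**Figure D5:**
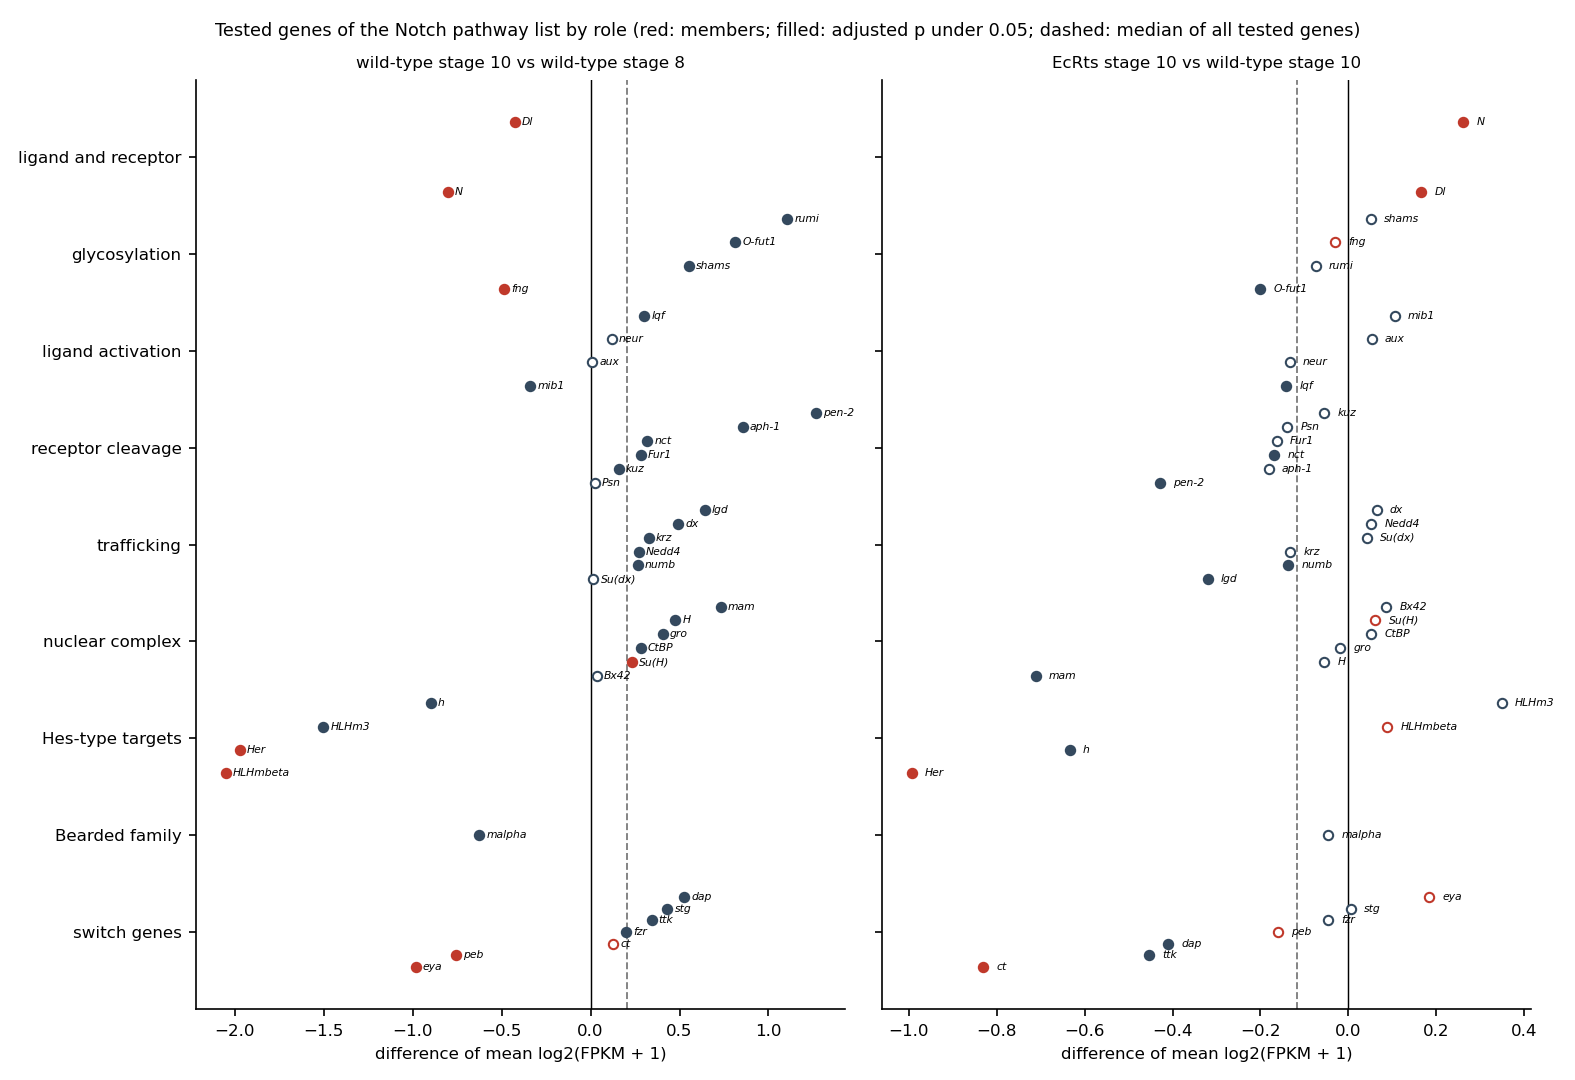
Change of the 40 tested genes of the pathway list by role, as the difference of mean log2(FPKM + 1), for wild-type stage 10 against stage 8 (left) and EcRts against wild-type stage 10 (right). Red points are the genes of the 10 described here, filled points have an adjusted p under 0.05 and the dashed line is the median of all tested genes. On the left the Hes-type genes lie below 0, and most genes of receptor cleavage, trafficking and the nuclear complex lie above it.

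Among the genes that modify Notch with sugars, rumi, which encodes an O-glucosyltransferase, rose from 12.3 ± 0.888 to 27.6 ± 1.802 FPKM between the wild-type stages, a change of 1.11 (SE 0.064, limma adjusted p = 5.62e-06). O-fut1, for the O-fucosyltransferase whose product Fringe extends, and shams, for a xylosyltransferase, also rose, so that 3 of 3 such genes moved opposite to fng. Of the 6 tested genes for receptor cleavage 5 rose and none fell, where 49.2% of all tested genes were called higher. The gamma-secretase subunit gene pen-2 rose from 14.2 ± 0.949 to 35.6 ± 1.79 FPKM (change 1.26, SE 0.067, limma adjusted p = 4.66e-06). aph-1, for another subunit of the enzyme, rose from 25.3 ± 2.32 to 46.5 ± 2.99 FPKM (change 0.85, SE 0.071, limma adjusted p = 2.33e-05). Psn, for the catalytic subunit, was at 37.8 and 38.4 FPKM and did not pass the test. Of 6 tested genes for receptor trafficking 5 rose, and of 5 tested nuclear factors beside Su(H) 4 rose, among them mam (mastermind), from 12.9 ± 0.345 to 22.1 ± 0.745 FPKM. The median change was 0.81 for the 3 glycosylation genes beside fng, 0.30 for cleavage, 0.30 for trafficking and 0.41 for these nuclear factors. It was 0.20 for all tested genes. As given above, the calls for kuz, Fur1, Nedd4, numb and CtBP were lost with median-of-ratios scaling and quantile normalization, and that for krz with the first.

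Of the genes that activate the ligand, mib1, for a ubiquitin ligase that acts on Delta, fell from 18.1 ± 1.49 to 14.2 ± 1.32 FPKM (change −0.34, SE 0.085, limma adjusted p = 0.00744), a call lost with scaling without eggshell and yolk genes (adjusted p = 0.198). h (hairy), a Hes-type gene outside the complex, fell from 16.4 ± 3.51 to 8.23 ± 0.939 FPKM (change −0.90, SE 0.135, limma adjusted p = 4.93e-04). HLHm3 fell by 1.50 on the log2 scale (SE 0.254, limma adjusted p = 9.60e-04). With the genes of the 10, 4 of 4 tested Hes-type genes were lower at wild-type stage 10, against 18.9% of all tested genes. A further 7 Hes-type genes of the list were not tested. Her, 1 of the 4, reached 1 FPKM in 3 stage 8 and 2 wild-type stage 10 libraries. It passed the level filter only with the stage 8 libraries, so its fall adds nothing to the count. The 4 tested switch and cell cycle genes beside ct, peb and eya rose: ttk, dap, stg and fzr. Of all tested genes 49.2% were called higher, and the call for fzr was lost with median-of-ratios scaling and quantile normalization. ttk, for the repressor Tramtrack, rose from 70.4 ± 1.01 to 89.8 ± 8.47 FPKM, and dap (dacapo), for a cyclin-dependent kinase inhibitor, from 35.0 ± 1.69 to 50.9 ± 1.21.

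Between EcRts and wild-type stage 10, 10 of the 31 other tested pathway genes were lower in EcRts, 21 did not pass the limma test and none was higher, also at unadjusted p under 0.05, against 33.9% of all tested genes lower and 9.93% higher. The share that fell is close to that background. pen-2, mam, h, ttk and dap passed in all 20 alternatives, while O-fut1, lqf, nct and numb lost the call with median-of-ratios, quantile and chromosome-arm scaling and lgd with the last of these. Leaving out 1 library also ended the call for numb in every case but wild-type stage 10 replicate 3, that for lqf without wild-type stage 10 replicate 2 or 3 or EcRts replicate 1 or 3, and that for O-fut1 without EcRts replicate 1. With other scalings this split changed: 9 genes of the whole list were higher with median-of-ratios scaling and also with quantile normalization, and 24 were lower without eggshell and yolk genes. mam had 23.0, 21.6 and 21.8 FPKM at wild-type stage 10 and 13.1, 12.8 and 13.4 in EcRts. All EcRts libraries were far below the wild-type stage 10 libraries and within 1 FPKM of the stage 8 mean of 12.9. The change was −0.71 (SE 0.045, limma adjusted p = 3.93e-05), and it passed in all 20 alternatives. h fell from 8.23 ± 0.939 to 4.93 ± 0.0980 FPKM (change −0.63, SE 0.135, limma adjusted p = 0.00713), and ttk from 89.8 ± 8.47 to 65.1 ± 1.34 (change −0.45, SE 0.062, limma adjusted p = 0.00101). dap fell from 50.9 ± 1.21 to 38.1 ± 1.25 FPKM. mam, ttk and dap all rose between the wild-type stages, and in EcRts against stage 8 none of the 3 passed the limma test, although dap had an unadjusted p under 0.05 (change 0.12, 95% interval 0.01 to 0.23). pen-2 and h, which also passed in all 20 alternatives, were called in EcRts against stage 8, with changes of 0.84 and −1.53. How many of all tested genes share the pattern of mam, ttk and dap was not counted.

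Between EcRts and stage 8, 17 of the 31 other pathway genes were higher, 4 lower, malpha among them, and 10 not called, against 39.8% of all tested genes higher and 21.5% lower. rumi, pen-2 and aph-1 showed the largest rises, of 1.03, 0.84 and 0.67 (limma adjusted p between 1.72e-05 and 1.19e-04). h and HLHm3 showed the largest falls, of −1.53 and −1.15 (limma adjusted p = 6.01e-05 and 0.00476). The call for mib1 (−0.23, adjusted p = 0.0419) was lost in 8 of 20 alternatives, with adjusted p up to 0.392.

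The genes whose log2(FPKM + 1) was most like that of N over the 9 libraries, among 7346 compared, were Shawn, CG14630, CG8801 (now Non1), CG43672 and CG13907, with Pearson r from 0.984 to 0.989. Shawn had means of 22.5 ± 0.979, 15.2 ± 0.125 and 17.7 ± 0.724 FPKM in stage 8, wild-type stage 10 and EcRts. Those most like HLHmbeta were Uhg4, CG6550, Ilp6, CG6490 (now plum) and CG9630, with r from 0.992 to 0.997. Ilp6, for an insulin-like peptide, had 9.70 ± 2.71, 2.79 ± 0.143 and 2.94 ± 0.504 FPKM. Those most like peb were Adgf-A and the ribosomal protein genes RpS14b, RpS3, RpL12 and RpL27A, with r of 0.991 to 0.995. Adgf-A, for an adenosine deaminase, had 23.3 ± 2.15, 9.31 ± 0.995 and 7.46 ± 0.103 FPKM. Such values are descriptions: the libraries form 3 groups that differ in many genes and in depth, and 111, 222 and 274 genes reached an r of 0.95 with N, HLHmbeta and peb.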

How the data were processed

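The authors deposited FPKM per gene with a confidence interval and a status. The submitters' processing notes name Cufflinks 2.02, TopHat2 2.0.7, Bowtie2 2.0.6 and CASAVA 1.8.2, with the build dm3. No annotation release, strand setting or read count is given in the sources used here. Samples were grouped by their source labels, and no 2 libraries were identical. A gene was tested where 3 or more of the 9 libraries had 1 FPKM or more, and 21 genes with a failed estimate listed at 0 were left out, which left 8340. log2(FPKM + 1) was fitted in limma 3.58.1 (R 4.3.3) with 1 mean per group over all 9 libraries and an intensity trend, and p-values were adjusted by Benjamini-Hochberg per comparison. The fit was checked on simulated data. Implied fragments were derived from the upper confidence limits. Of such counts under 50, 56.6% to 60.6% were whole (tolerance 0.02), so no count test was run. Ratios were compared with exact permutation tests in scipy 1.17.1.

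The 10 genes and all lists were chosen with earlier results of these data known. Pathway genes named with full values are, per comparison, the 3 largest called rises and falls whose higher group had a mean of 5 FPKM or more. Others were named after their values were seen. Like genes are the 5 with the highest r and at least 5 FPKM in a group. Alternatives were pseudocounts of 0.1 and 5, other filters, 4 scalings, no trend, 6 libraries only, a replicate block, each library left out, and crb in place of tj.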

Additional observations from a re-analysis of the deposited data

How the results depend on the processing

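Of the 540 values of a change of 1 of the 9 tested genes under an alternative, 526 kept their side of the threshold, 10 lost the call, 3 gained one and 1 called change reversed, that of Dl between EcRts and wild-type stage 10 at −0.012 with scaling without eggshell and yolk genes. Of the 526, 519 kept their sign and 7, all of changes not called, turned it: ct between the wild-type stages in 2, and fng in 3, Su(H) in 1 and HLHmbeta in 1 between EcRts and wild-type stage 10. The numbers of calls moved mainly with scaling. Between the wild-type stages the calls were 4105 higher and 1577 lower as deposited (72.2% higher), 2736 and 2549 with median-of-ratios scaling (51.8%) and 2626 and 2537 with quantile normalization (50.9%), where none of the 10 genes was higher and 14 and 15 pathway genes were. Without eggshell and yolk genes 870 were lower (86.1% higher). Between EcRts and wild-type stage 10 the calls were 828 higher and 2826 lower as deposited (22.7% higher). They were 1634 and 1559 with median-of-ratios scaling (51.2%), 1596 and 1744 with quantile normalization (47.8%), with 9 pathway genes higher in each. They were 1841 and 1298 with chromosome-arm scaling (58.6%), with 10 pathway genes higher and 7 lower. Without eggshell and yolk genes 5635 genes were called, 456 higher and 5179 lower (8.09%), with 0 of the 10 genes higher, and 24 pathway genes called, 0 higher and 24 lower. With a pseudocount of 5, 1 of the 10 genes was lower in EcRts than in wild-type stage 10. Against stage 8 the EcRts calls were 64.9% higher as deposited, 53.9%, 50.6% and 77.9% with median-of-ratios, quantile and chromosome-arm scaling, and none of the 10 genes was higher with quantile normalization. With crb as reference, 0 ratios were higher and 8 lower between the wild-type stages, and 5 and 2 between EcRts and wild-type stage 10, against 50.6% and 17.5%, and 45.4% and 11.0%, of all tested genes. HLHm7, counted in the 8, is not among the tested genes. The causes were not tested.

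Leaving out 1 library gave 1 to 2 genes of the 10, and 1 to 2 of the pathway list, higher in EcRts than in wild-type stage 10, the lower number without wild-type stage 10 replicate 2 or 3 or EcRts replicate 1 or 3. Ratios to tj were higher for 0 to 1 gene between EcRts and wild-type stage 10 (1 without EcRts replicate 1) and for 1 to 2 between EcRts and stage 8 (2 without EcRts replicate 2). Deviations of same-numbered libraries correlated at −0.039 to 0.23, with 2 of 9 pairs over 0.1. Those of different-numbered libraries correlated at −0.235 to 0.167, with 2 of 18 pairs over 0.1. These values do not settle whether the replicate numbers pair the samples. With the replicate block 5550, 3336 and 4930 genes were called in the 3 comparisons, against 5682, 3654 and 5117 without it, and 8, 4 and 9 of the 10 genes, as without it. Depth limits HLHm7 and Her, which rest on few implied fragments at stage 10.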

Other observations

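Of the pathway genes below the level filter, cas and so are named after their values were seen, with the fit that used no filter. cas (castor), a zinc finger gene that promotes polar and stalk cell fates, had 1.38, 1.38 and 0.996 FPKM at stage 8 and 0.333, 0.430 and 0.372 at wild-type stage 10 (change −0.70, limma adjusted p = 4.95e-04). Its EcRts libraries had 0.388, 0.217 and 0.405 FPKM and overlapped those of wild-type stage 10. so (sine oculis), which encodes a partner of Eya, changed by −0.38 between the wild-type stages (limma adjusted p = 0.00122) and by −0.0050 between EcRts and wild-type stage 10 (adjusted p = 0.992).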
